A study of Mus musculus with 12 samples.

Results

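The cells described here are synovial fibroblasts of the second experiment of the series, compared between a hashtag named severe STA and a hashtag named mild STA, with a healthy hashtag beside them. STA is serum transfer arthritis, a joint inflammation that follows injection of serum holding arthritis-inducing autoantibodies. Members were all cells of the fibroblast well of that experiment that the authors' filtered cell table lists with a fibroblast class (Mmp3+, Il6+, Pi16+, Lining or Cd200+). Of the 8042 cells of the series in that table, 1024 met the rule and 1021 of them matched a barcode of the well. They comprised 268 healthy, 283 mild and 470 severe cells.

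All 3 groups were cells of R5 x R26tdTomato mice (Il5 wt/Cre; R26 tdTom/tdTom), 8 to 10 weeks old, in which a Cre at the Il5 locus drives a tdTomato reporter, so healthy mice carried the same alleles. The sort took viable CD45- GR-1- cells of ankle and wrist joints. Antibodies carrying an oligonucleotide tag marked the cells before pooling, and 1 well of a 10x 3-prime chemistry read gene and hashtag UMIs (unique molecular identifiers, which count captured molecules). The labels speak of 4 animals per well and of untreated and STA mice only. The words mild and severe come from the authors' cell table, and the day of sampling, the serum dose, the clinical score behind the 2 words and the number of animals per hashtag are not given in the sources used here.

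Each condition was therefore 1 hashtag, all in 1 well, and animal, tag and condition cannot be told apart. No p-value or standard error is given. Levels are CPM, the UMIs of a gene per 1000000 summed UMIs of a hashtag, and differences are log2 ratios of CPM, severe over mild, with 95% counting intervals in parentheses. These intervals cover counting error only. They do not hold the spread between mice or between cells.

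The tags that separate the groups were 15 bases long and differed from each other at 11 or 12 positions. They are shown because every group in the text rests on them, and capitals mark the whole tag.
healthy: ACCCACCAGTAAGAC
mild: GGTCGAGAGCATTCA
severe: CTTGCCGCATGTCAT

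Hashtag calls were not equally clear. The tag of the cell's own group was the highest of the 3 in 100% of mild and 98.1% of severe cells, but in 63.1% of healthy cells. In the other 99 healthy cells the mild tag was highest. The top tag was at least 4 times the next in 198 mild, 177 severe and 8 healthy cells. The well shared 24 barcodes with any other library, 6 of them among these fibroblasts.

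Summed depth was 3103104 UMIs in healthy, 5885948 in mild and 8374777 in severe cells, with medians of 10818.5, 16688 and 14558.5 UMIs per cell. Median mitochondrial shares were 2.12, 2.52 and 2.26%. The hashtags also differed in Xist and in Y-linked genes. Of the mild cells, 272 had Xist UMIs and no Y-linked UMI, and 0 had Y-linked UMIs alone. The severe hashtag held 259 Xist cells, 153 Y cells and 58 cells that could not be placed, and the healthy hashtag held 156, 73 and 39. The severe and healthy hashtags thus held cells of both kinds and the mild hashtag of 1 kind, so sex and severity cannot be fully told apart, and results are also given for the severe Xist and severe Y cells.

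Synovial fibroblasts form a thin lining that makes lubricin and hyaluronan, and a sublining that holds vessels and collagen. In inflamed joints the lining and parts of the sublining release matrix-degrading enzymes, neutrophil-attracting chemokines and IL-6, while Pi16+ cells are known as universal fibroblasts that resemble an unspecialised reserve. Interferon response genes and acute-phase genes are 2 further programmes that fibroblasts switch on when cytokines reach them.

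The label held against its markers. The summed CPM of 7 fibroblast markers was 32056 in healthy, 40763 in mild and 45494 in severe cells. Neutrophil markers (8 genes) summed to 7.41, 12.9 and 30.0 CPM, with Ly6g and Retnlg at 0 in both STA hashtags. Macrophage or monocyte markers (9 genes) summed to 18.4, 35.3 and 13.97 CPM, and those of T cells, NK cells or ILCs (8 genes) to 6.45, 10.9 and 4.18 CPM. Chondrocyte markers (6 genes) summed to 149.5, 332 and 465 CPM, adipocyte markers (4 genes) to 195, 137 and 249.7 CPM, and Schwann cell markers (5 genes) to 39.3, 30.8 and 62.4 CPM. The class names went with their genes, which the clustering had used. In mild cells Il6 stood at 2925 CPM in the Il6+ class against 576 in the Mmp3+ and 360 in the Pi16+ class, and Mmp3 at 1397 CPM in the Mmp3+ class against 899 and 106 in the Il6+ and Pi16+ classes.

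Both STA hashtags held more Mmp3+ and fewer Pi16+ cells than the healthy one. Mmp3+ cells were 10.8% of healthy (exact binomial 95% interval 7.37 to 15.2), 49.1% of mild (43.2 to 55.1) and 40.6% of severe fibroblasts (36.2 to 45.2), and the mild and severe intervals overlapped. With a hashtag ratio of at least 4 the shares were 57.1 and 56.5%. Pi16+ cells were 47.0% (40.9 to 53.2), 20.5% (15.9 to 25.7) and 22.3% (18.7 to 26.4), where those intervals overlapped as well. Il6+ cells were 34.3, 22.3 and 29.6%. The Lining and Cd200+ classes held 6 to 19 cells per hashtag. Within the severe hashtag the Xist and Y cells also differed: Mmp3+ cells were 36.7% of Xist and 49.0% of Y cells, and Il6+ cells were 34.4 and 19.6%. Mmp3+ cells were also the deepest, with a median of 27183 UMIs in mild and 24748 in severe against 9890 to 10887 in the Il6+ and Pi16+ classes of both, so summed levels lean towards that class.

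**Figure D1:**
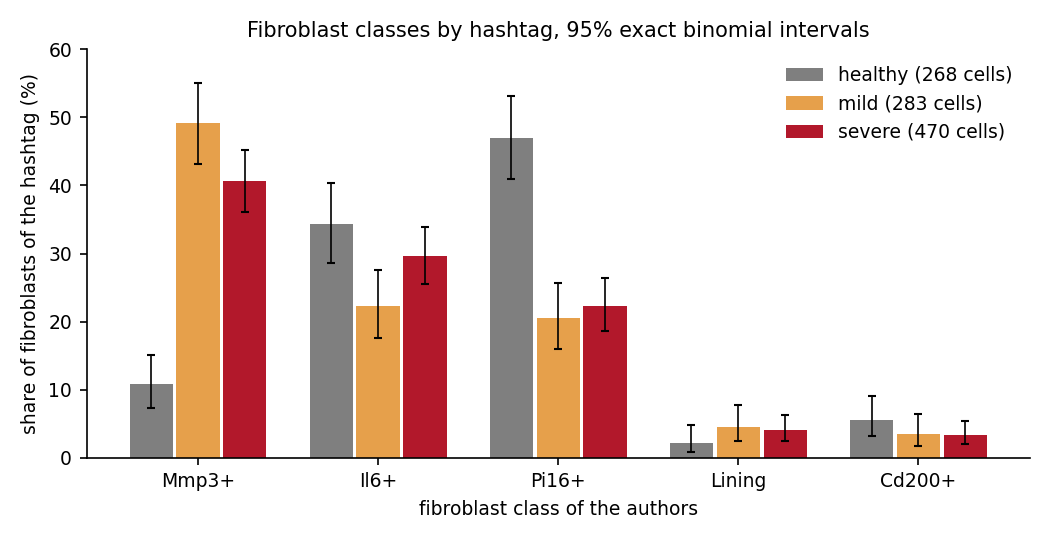
Share of each fibroblast class (y axis, %) among the fibroblasts of the healthy, mild and severe hashtag, with exact binomial 95% intervals as bars. Mmp3+ cells made up 10.8% of healthy, 49.1% of mild and 40.6% of severe cells.

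Severe and mild fibroblasts differed in far fewer genes than either did from healthy ones. Of 9549 genes with at least 50 UMIs in 1 of the 2 hashtags, 175 (1.83%) lay 2-fold or more apart, 89 higher in severe (0.932%) and 86 lower (0.901%), and the median gene stood at a log2 ratio of 0.02, with 46.2% of genes below 0. Against healthy cells, 752 of 9501 genes (7.91%) in severe and 751 of 8578 (8.75%) in mild lay 2-fold or more apart. Those 2 comparisons share the healthy hashtag. A count without replicates includes counting noise and single cells with many UMIs of a gene. Inside the severe hashtag, Y cells and Xist cells lay 2-fold or more apart in 184 of 7873 genes (2.34%).

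Genes that differed between STA and healthy cells in the first experiment, whose hashtags are other libraries, were then read here. Those hashtags also differed in sex-linked genes. The STA one held 322 Xist and 480 Y cells, and the healthy one 229 and 103. Class makeup was not held fixed in choosing the genes. In the first experiment 1600 of 10629 genes (15.1%) lay 2-fold or more apart. The 640 genes higher in STA there and measured here had a median log2 ratio to healthy of 1.08 in mild and 1.00 in severe cells, and 96.7 and 95.6% of them lay above 0. Between severe and mild their median was -0.03, with 53.9% below 0 against 46.4% of all 9443 genes measured in both. Among the 640 genes 35 were 2-fold or more lower in severe and 11 higher, against 69 lower and 69 higher among all 9443. The 635 genes lower in STA in the first experiment had medians of -0.86 in mild and -0.75 in severe against healthy. Of them 63.1% stood higher in severe than in mild, against 53.6% of all 9443 genes. By 2-fold or more, 18 of the 635 were higher in severe and 14 lower. Within classes the direction differed. The 640 genes had medians between severe and mild of 0.078 in Mmp3+, 0.082 in Il6+ and 0.067 in Pi16+ cells, against 0.044, 0.030 and -0.040 for all genes. The 635 genes had medians of 0.076, -0.030 and -0.088. In the severe Xist cells 57.8% of the 640 genes lay below the mild Xist cells, and in the severe Y cells 43.3% did.

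**Figure D2:**
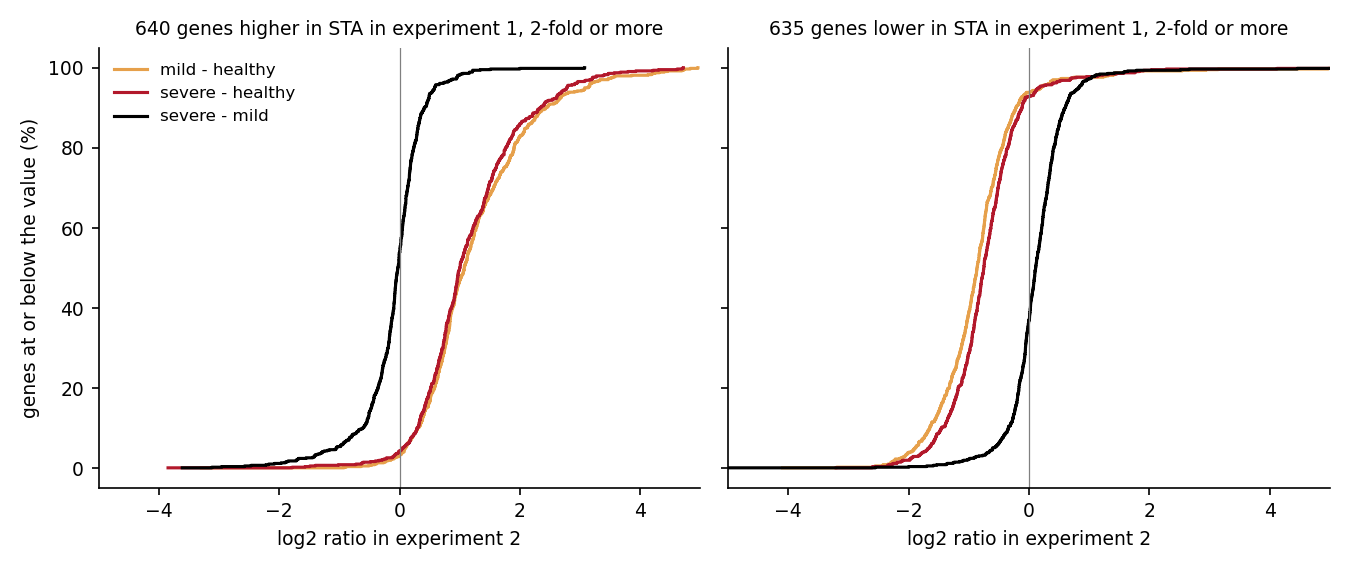
Cumulative share of genes (y axis, %) by log2 ratio in the second experiment (x axis), for genes 2-fold or more higher (left, 640 genes) or lower (right, 635) in STA in the first experiment. The mild and severe curves against healthy lie close together, and the severe minus mild curve is centred near 0, with medians of -0.03 and 0.11.

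Most acute-phase genes were lower in severe than in mild cells, though none was among the 14 lowest genes, which needed the same sign in the 3 large classes. Acute-phase genes encode secreted defence proteins that cytokines such as IL-6 and IL-1 induce. Hp, which encodes the haemoglobin-binding protein haptoglobin (mm10 chr8:109575128-109579172, minus strand), read 81.9 CPM in healthy, 759 in mild and 259 in severe cells. Saa3, a serum amyloid A protein (chr7:46711998-46715700, minus strand), read 75.4, 504 and 204 CPM. Both were highest in mild and lowest in healthy cells, at log2 ratios of severe to mild of -1.55 (-1.63 to -1.48) and -1.30 (-1.39 to -1.22). Saa2 was at 17.2 CPM in mild and 1.79 in severe cells, but 94.1% of its mild UMIs came from 5 cells.

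Over all genes, 46.2% were lower in severe and 0.901% 2-fold or more lower, with a median log2 ratio of 0.02. Of 10 acute-phase genes measured, 7 were lower in severe, 5 of them 2-fold or more, and the median was -0.71. Of these, Saa2 and Serpina3g had under 50 UMIs in severe and passed the count minimum through mild alone. Of the 8 genes that passed in both hashtags 5 were lower in severe, 3 by 2-fold or more, with a median of -0.24. Serpina3g, a serine protease inhibitor, was at 16.8 CPM in mild and 4.30 in severe cells (-1.97, -2.56 to -1.40). Lcn2, which encodes the iron-carrier-binding protein lipocalin 2, read 81.4 and 73.1 CPM, an interval that held 0. The 3 members that were not lower were Lbp (0.01), Steap4 (0.30) and Serpina3n, a protease inhibitor of the same family as Serpina3g, at 162, 232 and 366 CPM in healthy, mild and severe cells (0.66, 0.57 to 0.75). The list was lower in severe in the Mmp3+ class, with a median of -1.23 over 10 genes, but not in the Il6+ class (0.19, 7 genes). Macrophage or monocyte markers were also higher in mild (35.3 against 13.97 CPM over 9 genes, with C1qa at 0 in both), and their part in the result was not tested.

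The 14 lowest genes included ligands and secreted factors. Inhba, which encodes the activin A subunit of the TGF-beta family (chr13:16011851-16031621, plus strand), read 142 CPM in healthy, 880 in mild and 393 in severe cells (-1.16, -1.23 to -1.10). Ereg and Hbegf encode ligands of the EGF receptor. Ereg read 23.9, 129 and 53.0 CPM (-1.28, -1.45 to -1.11), and Hbegf 130, 438 and 287 CPM (-0.61, -0.69 to -0.53). In all 3 the severe level lay between the healthy and the mild level. F13a1, the clotting factor XIII A subunit, followed the same order at 17.1, 151 and 64.0 CPM (-1.24, -1.40 to -1.08). So did Plac8 at 9.02, 55.0 and 20.9 CPM (-1.40, -1.67 to -1.13). F13a1 was seen in 13.1% of mild and 7.45% of severe cells, and 5 cells held 45.5 and 47.6% of its UMIs.

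Fth1, the ferritin heavy chain that stores iron, was the most abundant of the 14 lowest genes. It was found in 99.6% of healthy, 99.3% of mild and 100% of severe cells at 4936, 6728 and 4433 CPM (-0.60, -0.62 to -0.58). Its severe level was the lowest of the 3. Sod2 and Sod3, the mitochondrial and the extracellular superoxide dismutase, read 283 and 457 CPM in mild and 187 and 316 in severe cells (-0.60 and -0.53). Both severe levels lay just under the healthy ones of 214 and 331 CPM. The other genes of the 14 lowest were Nfatc2, Ell2, Col22a1, Hmgb2, Dnajb9 and Stmn1, at -0.56 to -0.70.

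Lining genes were mostly lower in severe. Prg4, which encodes lubricin, read 3386 CPM in healthy, 8450 in mild and 5832 in severe cells (-0.53, -0.55 to -0.52). Clic5 read 9.35, 71.9 and 33.3 CPM (-1.11, -1.33 to -0.89), and Col22a1, a collagen of tissue junctions, 22.9, 67.4 and 42.3 CPM (-0.67). Over all genes, 46.2% were lower in severe and 0.901% 2-fold or more lower. Of 13 lining genes, 11 were lower in severe, 2 of them 2-fold or more, with a median of -0.52. The exceptions were Cd55 and Rbp4. Lining cells were 4.59% of mild and 4.04% of severe fibroblasts, 13 and 19 cells, and 5 cells held 77.3% of the mild Clic5 UMIs.

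Matrix-degrading enzymes differed among themselves. Mmp13, collagenase 3, read 340, 725 and 368 CPM in healthy, mild and severe cells (-0.98, -1.04 to -0.91), and Mmp3, stromelysin 1, 223, 1225 and 818 CPM (-0.58, -0.63 to -0.54). Mmp2, a gelatinase, stood at 1500 and 1479 CPM in mild and severe, an interval that held 0. Of 11 matrix metalloproteinases and their TIMP inhibitors, 7 were lower and 4 higher in severe, none 2-fold or more. Of the 10 that passed the count minimum in both hashtags, 7 were lower and 3 higher, and 1 passed through severe alone. Among all genes 46.2% were lower in severe and 1.83% lay 2-fold or more apart. Tnfsf11, which encodes the osteoclast factor RANKL, read 3.87, 73.4 and 42.6 CPM (-0.78, -0.99 to -0.58). Both STA hashtags were far above healthy for it.

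Cytokine and chemokine genes were split. Il6 read 919 CPM in healthy, 821 in mild and 685 in severe cells (-0.26, -0.32 to -0.21), so neither STA level exceeded the healthy one. Cxcl5, a neutrophil-attracting chemokine, read 28.04, 613 and 554 CPM (-0.15, -0.21 to -0.08). Cxcl1 read 4777, 3366 and 2895 CPM (-0.22). Both chemokines stood lower in severe by far less than 2-fold. Cxcl2, of the same family, was at 686, 201 and 381 CPM, higher in severe (0.92, 0.83 to 1.02), while Cxcl3 was lower (-1.29). Among 19 NF-kB targets and feedback genes 15 were lower in severe, none 2-fold or more, with a median of -0.18. Of all genes 46.2% were lower.

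Cell cycle genes were lower in severe in 19 of 20 cases, 5 of them 2-fold or more, with a median of -0.43. Over all genes, 46.2% were lower and 0.901% 2-fold or more lower. Top2a, a DNA topoisomerase of dividing cells, read 20.3, 42.6 and 16.0 CPM in healthy, mild and severe cells (-1.41, -1.73 to -1.11). This rested on few cells. Top2a was detected in 9.54% of mild and 9.79% of severe cells, 5 mild cells held 75.7% of its UMIs, and without the 5 richest cells on each side the log2 ratio was -0.29. For Ube2c it went from -1.85 to -0.18 and for Ccnb1 from -1.69 to -0.51.

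**Figure D3:**
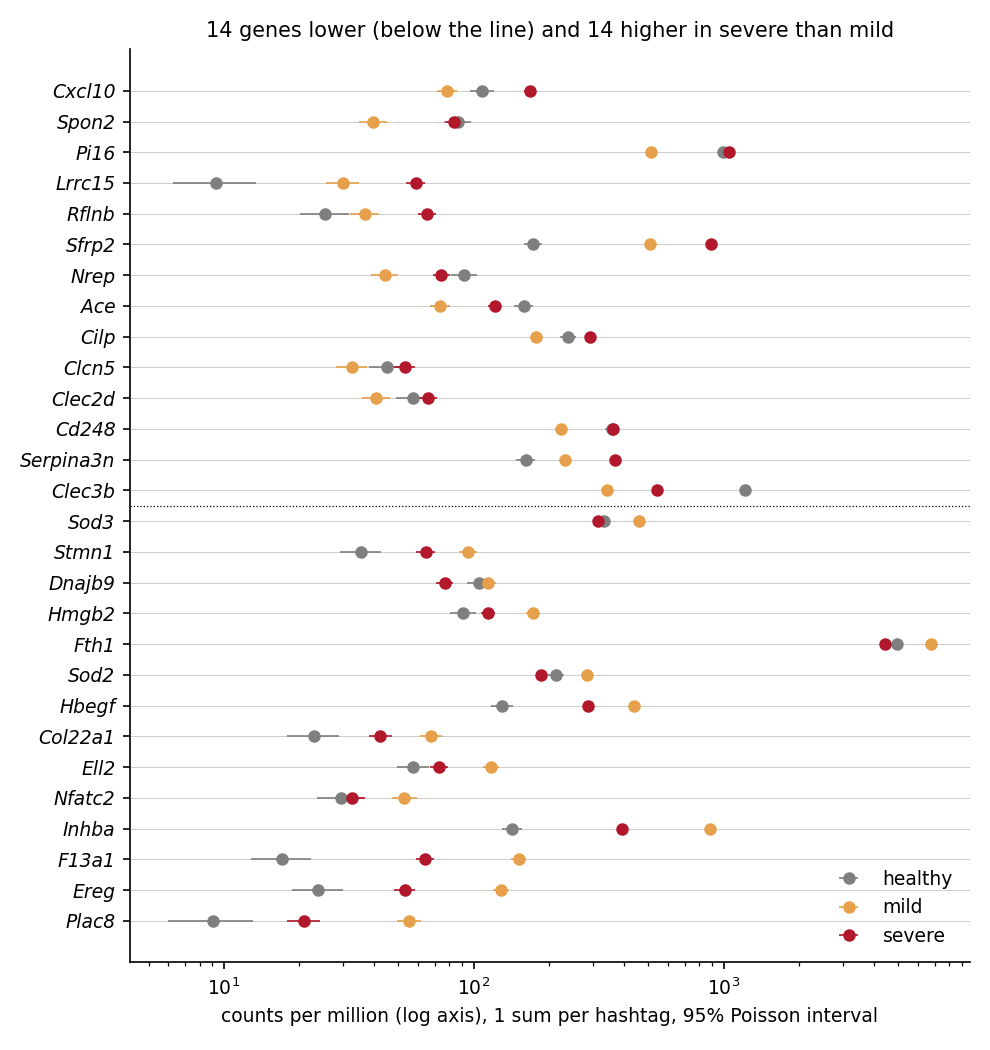
CPM (x axis, log scale) of the 14 lowest and the 14 highest genes in severe relative to mild cells, chosen for this difference, with exact Poisson 95% intervals. Each point is the sum of 1 hashtag, and healthy levels lie between or beyond the 2 STA levels depending on the gene.

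Interferon response genes stood higher in severe. Ifit1, an interferon-induced protein that binds viral RNA, read 22.9 CPM in healthy, 9.85 in mild and 43.0 in severe cells (2.13, 1.72 to 2.55). Ifit3, of the same family, read 3.87, 2.72 and 10.9 CPM (2.00, 1.22 to 2.87), and Rsad2, the antiviral enzyme viperin, 9.99, 1.02 and 8.60 CPM (3.08, 1.88 to 4.57). Rsad2 and Ifit1 were thus lowest in mild, with healthy in between or close to severe. Isg15, a ubiquitin-like modifier named here after its values were seen, read 18.1, 16.5 and 34.6 CPM (1.07, 0.73 to 1.42).

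Of 22 interferon response genes measured, 20 were higher in severe, 6 of them 2-fold or more, and the median was 0.37. Over all genes, 46.2% lay below 0 and 0.932% were 2-fold or more higher. The members that were not higher were Irf7 and Bst2. The severe hashtag was the deeper one. Of the 22 genes 6, Ifit3, Rsad2, Ifi47, Usp18, Gbp3 and Igtp, had under 50 UMIs in mild and passed the count minimum through severe alone. Their choice thus used the severe counts, though with the deeper severe sum this did not by itself fix their direction. Of the 16 genes that passed in both, 14 were higher in severe, 3 by 2-fold or more, with a median of 0.34. Against healthy, the list's median was 0.29 in severe (22 genes) and -0.17 in mild (16 genes). Levels were low and uneven. Ifit1 was found in 6.71% of mild and 8.72% of severe cells, and 5 cells held 75.9 and 71.9% of its UMIs, while without these cells the log2 ratio was 2.34. Neutrophil markers were higher in severe as well (30.0 against 12.9 CPM), at 9.10 CPM in severe Xist and 19.4 in severe Y cells, and their part in the interferon result was not tested. Cxcl10, an interferon-induced chemokine (chr5:92346638-92348889, minus strand), read 108, 78.0 and 168 CPM (1.11, 0.96 to 1.27). Most of its severe UMIs, but not most of its mild UMIs, came from the Il6+ class, and without that class the log2 ratio was -0.67. Without the Cd200+ class it was 1.69, so part of the mild Cxcl10 UMIs lay in that class, which held 10 mild cells.

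The upstream sequences of these genes are shown because most interferon genes lay on the severe side and Saa3 on the mild side. RefSeq promoters of GRCm38.p6 were read over the 250 bases before each start, with 4 motifs searched on both strands: GAAA, any 2 bases and GAAA (the interferon-stimulated response element), GGG, any 3 bases and TTCC (NF-kB), TTNNGNAA (C/EBP) and TGANTCA (AP-1). Capitals mark a match to any of them, and matches may overlap.
Cxcl10 (chr5:92348890-92349139, minus strand): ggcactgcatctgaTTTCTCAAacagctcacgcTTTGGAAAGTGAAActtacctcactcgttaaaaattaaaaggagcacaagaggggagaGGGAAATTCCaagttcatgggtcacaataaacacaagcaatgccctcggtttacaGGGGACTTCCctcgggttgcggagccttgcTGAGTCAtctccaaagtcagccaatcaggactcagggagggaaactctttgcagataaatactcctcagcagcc
Ifit1 (chr19:34640639-34640888, plus strand): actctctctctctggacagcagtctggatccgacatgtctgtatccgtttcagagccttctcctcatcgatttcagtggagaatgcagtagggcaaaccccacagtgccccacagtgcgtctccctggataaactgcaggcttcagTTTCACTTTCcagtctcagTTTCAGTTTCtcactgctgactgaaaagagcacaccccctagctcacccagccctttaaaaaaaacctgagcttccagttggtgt
Isg15 (chr4:156200819-156201068, minus strand): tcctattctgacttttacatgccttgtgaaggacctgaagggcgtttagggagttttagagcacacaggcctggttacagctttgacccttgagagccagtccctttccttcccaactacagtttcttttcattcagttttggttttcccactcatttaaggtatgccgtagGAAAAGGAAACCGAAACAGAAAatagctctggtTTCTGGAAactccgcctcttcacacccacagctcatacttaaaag
Saa3 (chr7:46715677-46715926, minus strand): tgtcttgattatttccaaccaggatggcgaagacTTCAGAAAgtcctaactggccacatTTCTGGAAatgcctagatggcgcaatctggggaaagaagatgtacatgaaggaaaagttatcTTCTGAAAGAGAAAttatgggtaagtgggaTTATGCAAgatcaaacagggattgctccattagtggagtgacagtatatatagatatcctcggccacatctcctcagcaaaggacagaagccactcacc

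The interferon motif begins 104 and 85 bases before the start of Ifit1, 78, 72 and 66 bases before that of Isg15 in overlapping copies, and 213 bases before that of Cxcl10, where it overlaps a C/EBP match. Cxcl10 also has NF-kB matches at 159 and 104 bases and AP-1 at 74. Saa3 has C/EBP matches at 216, 191, 129 and 99 bases and an interferon motif at 125, which overlaps the C/EBP match at 129. The interferon motif was present in 11 of the 18 interferon response genes with a promoter in the table (61.1%) against 3.13% of the 7599 measured genes with one. C/EBP was present in 8 of 8 acute-phase genes, but this short motif is in 32.0% of the measured genes. A match describes letters only.

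Genes of universal fibroblasts were mostly higher in severe than in mild cells. Pi16, a secreted peptidase inhibitor (chr17:29317680-29330593, plus strand), read 993 CPM in healthy, 511 in mild and 1047 in severe cells (1.03, 0.97 to 1.09). Cd248, the glycoprotein endosialin, read 356, 223 and 359 CPM (0.69, 0.59 to 0.78), and Clec3b, tetranectin, 1216, 342 and 539 CPM (0.66, 0.58 to 0.73). For Pi16 and Cd248 the severe level was near the healthy one, while for Clec3b it lay far below. Cd34, a surface sialomucin, read 823, 255 and 376 CPM (0.56, 0.48 to 0.65). Of 12 universal fibroblast genes 10 were higher in severe than mild, 1 of them 2-fold or more, with a median of 0.41. Over all genes, 46.2% lay below 0 and 0.932% were 2-fold or more higher. The list's median against healthy was -0.71 in severe and -1.01 in mild.

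The 14 highest genes included secreted and membrane proteins of the matrix and cell surface. Spon2, spondin 2, read 86.4, 39.6 and 83.6 CPM in healthy, mild and severe cells (1.08, 0.86 to 1.30), and Cilp, a cartilage matrix protein, 239, 178 and 292 CPM (0.71, 0.61 to 0.82). Lrrc15, a membrane protein of activated fibroblasts, read 9.35, 29.9 and 58.5 CPM (0.97, 0.72 to 1.23) and was seen in 4.85, 19.1 and 27.4% of cells. It was lowest in healthy and highest in severe cells. Acta2, smooth muscle actin, took the same order at 29.6, 47.9 and 92.5 CPM (0.95, 0.75 to 1.15), as did Sfrp2, a secreted Wnt antagonist, at 173, 509 and 892 CPM (0.81, 0.75 to 0.87). Pericyte or smooth muscle markers, which include genes of contractile cells, summed to 74.4, 96.7 and 69.3 CPM and did not follow that order. Chondrocyte markers did, at 149.5, 332 and 465 CPM, and 5 of 5 measured were higher in severe than mild, with a median of 0.50. Schwann cell markers were higher in severe too (4 of 4 measured), where 46.2% of all genes lay below 0. The part of these cells in the values of the matrix genes was not tested.

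Of 10 small leucine-rich proteoglycans, 9 were higher in severe, with a median of 0.26, where 46.2% of all genes lay below 0. Kera, keratocan, was the 1 past 2-fold, at 10.7 and 24.8 CPM in mild and severe, and Bgn, biglycan, was the exception (-0.09). Fibrillar collagen genes and their processing enzymes hardly differed over all cells, with a median of 0.10 over 19 genes. Col1a1, the main collagen chain of the tissue, read 6825, 17521 and 19146 CPM (0.13, 0.12 to 0.14). The other genes of the 14 highest were Rflnb, Nrep, Ace, Clcn5 and Clec2d, at 0.69 to 0.83. Fabp5, a fatty acid carrier, reached 232 CPM in severe against 91.7 in mild (1.34), but 5 cells held 80.9% of the mild UMIs.

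**Figure D4:**
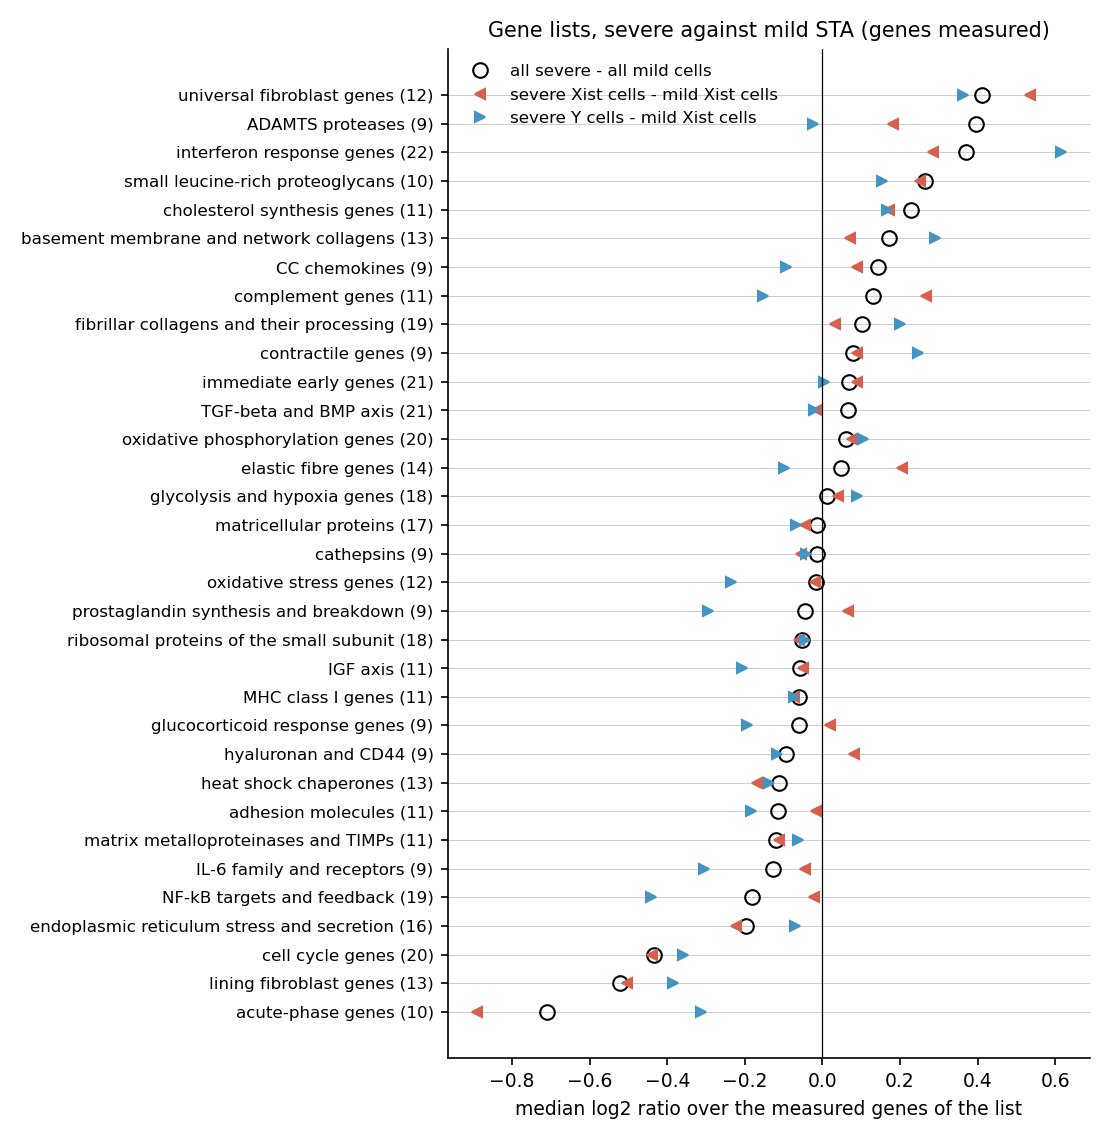
Median log2 ratio of severe to mild (x axis) for each gene list with at least 9 measured genes (number in parentheses), over all cells (circles), for severe Xist against mild Xist cells (left triangles) and severe Y against mild Xist cells (right triangles). Acute-phase genes lie lowest at -0.71 and universal fibroblast genes highest at 0.41. The acute-phase value includes genes that passed the count minimum through mild alone. Over genes that passed in both hashtags its median was -0.24, and lining fibroblast genes (-0.52) and cell cycle genes (-0.50) lay lower.

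The 2 hashtags were also compared within classes. In the Mmp3+ class 144 of 8050 genes (1.79%) lay 2-fold or more apart, in the Il6+ class 105 of 4007 (2.62%) and in the Pi16+ class 95 of 3591 (2.65%). In the Il6+ class 83 genes were higher in severe (2.07%) and 22 lower (0.549%). The severe sum of this class was deeper, at 1601829 against 726726 UMIs, so a minimum of 50 UMIs admits lower levels in severe than in mild. The split was 16 higher and 3 lower with at least 200 UMIs and 947 higher and 2901 lower with at least 1, so its direction depends on the minimum. In the Pi16+ class, where the severe sum was deeper as well, it went from 55 higher and 40 lower to 811 and 2370 with at least 1 UMI. The smaller classes, with 10 to 19 cells a side, gave 7.86% (Lining) and 14.6% (Cd200+) and are not described further.

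Hp lay on opposite sides in 2 classes. In Mmp3+ cells it read 409 CPM in healthy, 1064 in mild and 380 in severe (-1.49, -1.56 to -1.41), and in Il6+ cells 56.0, 27.5 and 134 CPM (2.28, 1.62 to 3.02). The Il6+ value in mild rests on 20 UMIs. Lif, a cytokine of the IL-6 family, was likewise lower in severe in Mmp3+ cells (152 and 78.6 CPM, -0.95) and higher in Il6+ cells (75.7 and 178 CPM, 1.24). Inhba was lower in severe in both, at -1.12 in Mmp3+ and -2.21 in Il6+ cells. Sfrp2 was higher in all 3 classes, most in Il6+ cells, where it read 58.0, 93.6 and 513 CPM in healthy, mild and severe (2.46, 2.10 to 2.83).

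Mmp3 and Prg4, genes of the activated and lining states, stood lowest relative to mild in the Il6+ class and above mild in the Pi16+ class. Mmp3 read 899 and 419 CPM there in mild and severe (-1.10, -1.26 to -0.94) against -0.24 in the Mmp3+ class and 0.20 in the Pi16+ class, an interval that held 0, and Prg4 2020 and 687 CPM (-1.56, -1.67 to -1.44) against -0.36 in Mmp3+ and 0.21 (0.03 to 0.38) in Pi16+ cells. Cxcl10 in Il6+ cells read 271, 209 and 722 CPM in healthy, mild and severe (1.79, 1.54 to 2.04), with the severe value highest. Il6 itself was lower in severe in each class, from -0.41 in Il6+ to -0.81 in Pi16+ cells.

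Collagen and heat shock genes were mostly higher in severe in the Pi16+ and Il6+ classes. Col1a1 read 6409 CPM in healthy, 4341 in mild and 10266 in severe Pi16+ cells (1.24, 1.18 to 1.30), and Col3a1, named after its values were seen, 8279, 5570 and 12478 CPM (1.16, 1.11 to 1.22). Mild was the lowest and severe the highest for both. Over 18 fibrillar collagen and processing genes measured in this class the median was 0.49, with 14 above 0 and 4 higher by 2-fold or more, where 1.53% of all genes were that much higher and 50.6% lay below 0. In the Il6+ class 14 of 18 were above 0 too, none by 2-fold or more, with a median of 0.39. The median over all 4007 genes of that class was 0.04. Of 9429 genes measured in both experiments over all cells, 47.5% lay below 0 in Il6+ cells. Pi16 itself was higher in severe in the Pi16+ class too, at 1608 and 2795 CPM (0.80, 0.70 to 0.90).

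Hspb1, a small heat shock protein, read 392, 55.3 and 358 CPM in healthy, mild and severe Pi16+ cells (2.69, 2.20 to 3.23). Mild was the group apart, on 36 UMIs. Hspa1a, an inducible HSP70, read 1230, 480 and 1508 CPM (1.65, 1.48 to 1.83). All 13 heat shock genes were higher in severe in this class, 5 by 2-fold or more, and 11 of 13 in the Il6+ class, 4 by 2-fold or more. Of all genes, 1.53% in the Pi16+ and 2.07% in the Il6+ class were that much higher, and 50.6% of those in Pi16+ cells lay below 0. In Il6+ cells 47.5% of the 9429 genes measured in both experiments over all cells lay below 0. In the Mmp3+ class all 13 were lower, with a median of -0.38, against 42.2% of all genes of that class. The authors' stress score per cell, whose genes are not given in the sources used here, had medians of 0.446 in healthy, 0.282 in mild and 0.349 in severe fibroblasts, and its part in the heat shock result was not tested. Ccl2, a monocyte-attracting chemokine, went the other way in Pi16+ cells, at 864, 1342 and 446 CPM (-1.59, -1.75 to -1.43).

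**Figure D5:**
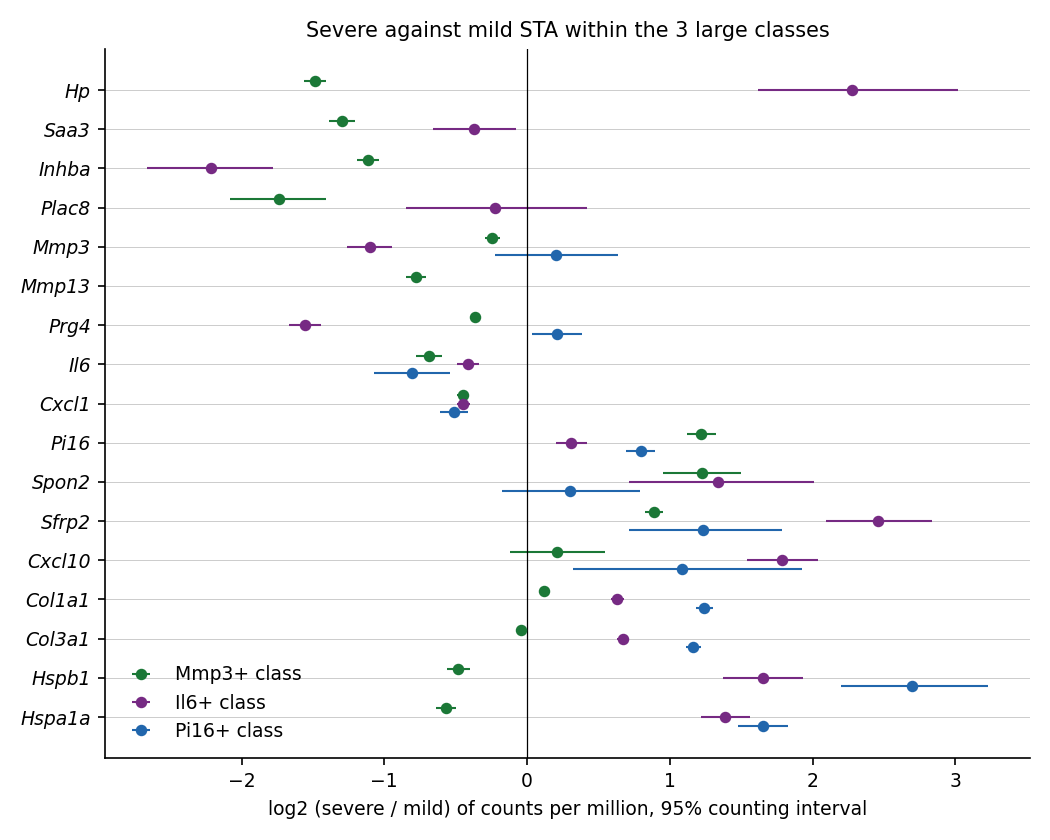
Log2 ratio of severe to mild CPM (x axis) of 17 genes within the Mmp3+, Il6+ and Pi16+ classes, with 95% counting intervals and points only where 1 hashtag had at least 50 UMIs. Hp lies at -1.49 in Mmp3+ and 2.28 in Il6+ cells, and Col1a1 and Col3a1 lie above 1 in Pi16+ cells only.

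The 2 sets of severe cells did not stand at the same distance from mild. Xist cells of the severe hashtag, the match to the mild cells by Xist, were lower for the mild-side genes than Y cells were. Hp read 768 CPM in mild Xist, 146 in severe Xist and 436 in severe Y cells. Inhba read 891, 280 and 612 CPM. Ereg read 131, 19.3 and 118 CPM, so severe Y cells were close to mild. The same held for Mmp13 at 734, 190 and 702 CPM and for Mmp3 at 1240, 540 and 1337 CPM, where the severe Y cells slightly exceeded the mild ones. The 3 sets also differed in class makeup. Mmp3+ cells were 49.3, 36.7 and 49.0% of mild Xist, severe Xist and severe Y cells, and Il6+ cells 22.8, 34.4 and 19.6%. The part of class makeup in these values and those below was not tested.

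Other genes ran against that order. Il6 read 829 CPM in mild Xist, 914 in severe Xist and 381 in severe Y cells, and Sfrp2 read 515, 1301 and 263 CPM. The Sfrp2 log2 ratio to mild was 1.34 (1.27 to 1.40) in Xist and -0.97 (-1.09 to -0.86) in Y cells. The 2 severe sets thus lay on opposite sides of mild for Sfrp2. For Fth1, F13a1, Spon2, Cd248 and Clec3b both severe sets stood on the same side of mild. Fth1 was at -0.61 and -0.66, and Spon2 at 1.16 and 0.97.

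Against mild Xist cells, 174 of 8587 genes (2.03%) lay 2-fold or more apart in severe Xist cells and 169 of 8492 (1.99%) in severe Y cells, with 50.7 and 46.6% of genes below 0. Among lists, interferon response genes were higher than mild in severe Xist cells (17 of 22 genes, median 0.29) and in severe Y cells (21 of 22, median 0.61). Isg15 read 16.7 CPM in mild Xist, 20.1 in severe Xist and 62.4 in severe Y cells. Universal fibroblast genes were higher in both (medians 0.53 and 0.36), with 10 of 12 genes each. Acute-phase genes were lower in both (medians -0.89 and -0.31), with 7 of 10 genes each. The interferon values keep the 6 genes that passed the count minimum through severe alone. The acute-phase values keep the 2 that passed through mild alone. For the 2 acute-phase genes that minimum set the direction over all cells. For the 6 interferon genes it did not by itself, because the severe sum was the deeper one. NF-kB targets were close to mild in Xist cells (-0.02) and lower in Y cells (-0.44, 18 of 19 genes). Sex and animal cannot be told apart in these sets.

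The leading genes were also read in the first experiment. The severity of its STA animals is not given in the labels, so signs there are of STA against healthy and not of severity. Of the 14 highest and 14 lowest genes, 10 of 28 had the same sign there for STA against healthy as here for severe against mild (35.7%, against 48.6% of all genes measured in both). With the class makeup of the first experiment held fixed, it was 15 of 28. Among the 14 genes lower in severe, 10 were higher in STA in the first experiment, such as Plac8 (1.57), Ereg (1.32) and Inhba (1.23). Among the 14 higher in severe, 6 were higher in STA, such as Sfrp2 (2.95) and Lrrc15 (1.67), and 8 lower, such as Clec3b (-2.07) and Pi16 (-1.29).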

How the data were processed

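Per the labels, cells of each hashtag were pooled in 1 well and sequenced as 3-prime gene expression and hashtag libraries. The authors deposited raw UMI counts per gene and barcode, on the mm10 build. Cell Ranger produced them, in version 6.1.2 going by the headers of the files, while the submitters' processing notes name version 6.0.6. Their deposited cell table gives hashtag and class calls, a mitochondrial fraction, and a hashtag margin and a stress score whose formulas are not given in the sources used here. Filters, doublet removal and clustering settings are not given in the sources used here, and no doublet caller was run.

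Counts were summed per hashtag, and per class, and scaled to CPM with Python 3.11.15, numpy 2.4.6, scipy 1.17.1 and pandas 2.3.3. Figures used matplotlib 3.10.9. A gene was measured with at least 50 counts in 1 of the groups compared. Intervals are exact (Poisson for CPM, Clopper-Pearson for shares, binomial for ratios), at 95%. The ratio code was tested on simulated data. edgeR 4.0.16 (TMM) and DESeq2 1.42.0 (size factors) in R 4.3.3 served only as alternative scalings. With 1 hashtag a side no test was made.

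Named genes were the 14 highest and 14 lowest log2 ratios among genes with at least 50 CPM in 1 of the 2 hashtags, an interval leaving out 0 and the same sign in the 3 large classes, up to 4 members of each list, and the 4 highest and 4 lowest of each class with at least 200 counts. Sex-linked, mitochondrial, ribosomal, immunoglobulin, T cell receptor and predicted genes were left out. Further list members are named as exceptions. Members and lists were chosen with earlier results of these data known. Of the 1120 cells of the well in the authors' table, 3 matched no barcode and were left out. The other 3165 barcodes of the well were not used.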

Additional observations from a re-analysis of the deposited data

Results flagged for a closer look

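In each of the following the severe cells of 1 set stood above mild and those of another below, and the difference was not tested. Hp was higher in severe in Il6+ cells (2.28) and lower in Mmp3+ cells (-1.49), a difference of 3.76 on the log2 scale. Lif was likewise at 1.24 in Il6+ and -0.95 in Mmp3+ cells, 2.19 apart. Dnajb1, an HSP40 co-chaperone, was at 1.29 in Il6+ and -0.73 in Mmp3+ cells, 2.02 apart.

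Against mild Xist cells, Sfrp2 was at 1.34 in severe Xist and -0.97 in severe Y cells, 2.31 apart. Adamts9, a secreted protease, was at 0.90 and -0.63, 1.53 apart. Cdh2, N-cadherin, was at 0.99 and -0.66, 1.66 apart.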

How the results depend on the processing

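Each condition was 1 hashtag in 1 well, so hashtag, animals and condition cannot be told apart, and the depth of a class (58 to 191 cells in the 3 large ones) limits genes with few UMIs. No paired analysis was possible because each group was 1 hashtag. The 1.5-fold threshold, the comparison of severe Y with mild Xist cells and leaving out the 5 richest cells were added after seeing the data. So was the comparison with only those healthy cells in which the healthy tag was highest.

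The 175 genes 2-fold or more apart became 31 with at least 200 counts, 3772 with at least 1 count (1507 higher) and 540 at 1.5-fold, and 140 to 180 in the rest. Higher genes were 50.9% of them, but 39.4% with a hashtag ratio of at least 4, 34.5% in Xist cells and 27.2% for severe Y against mild Xist cells. With the same 2 count minimums the 752 genes of severe against healthy became 305 and 4802, and the 751 of mild against healthy 323 and 3983, or 486 with class makeup held fixed. With only healthy cells in which the healthy tag was highest, they became 963 (10.1%) for severe and 901 (10.6%) for mild. The 144 genes of the Mmp3+ class became 23 and 3351 (41 after thinning), the 105 of Il6+ 19 and 3848 (34), and the 95 of Pi16+ 22 and 3181 (40). Of 43 lists, 9 had a median of at least 0.25 in size, 5 with cells weighted equally, 15 with a hashtag ratio of at least 4 and 14 without Il6+ cells. Of the 9, 6 were higher and 3 lower in severe, but 3 higher and 6 lower with class makeup held fixed. Severe Y against mild Xist cells gave 4 higher and 8 lower, and Xist cells only 7 higher and 4 lower. With a hashtag ratio of at least 4 Mmp3+ shares were 57.1% in mild and 56.5% in severe, Il6+ in severe 22.03%, and Pi16+ 15.2 and 13.6%. Pi16+ cells were 40.0% of all healthy cells of the table. The ratio was not run against healthy, which kept 8 cells.

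Without Il6+ cells the log2 ratio was -0.67 for Cxcl10, -0.33 for Cxcl9 and -0.50 for the median of both. For severe Y against mild Xist cells it was 0.045 for Cxcl3, -0.024 for ADAMTS proteases and -0.093 for Wnt antagonists. It was 0.023 for Saa2 and 0.068 for Igfbp2 with a hashtag ratio of at least 4, -0.15 for Kera and 0.20 for Ibsp over all cells of the table, and 0.80 for Ibsp and 0.32 for acute-phase genes without Mmp3+ cells. The cause was not tested. Of 420 alternative values of the 28 leading genes, 4 had the other sign and 262 stayed within the counting interval of the main value. These genes were chosen for large ratios and the same sign in each large class, and the alternatives reuse the same cells. Their few sign changes therefore cannot show how stable the signs are. Over all 197 named genes, 172 of 2944 alternative values had the other sign, and 85 genes changed sign at least once.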

Other observations

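Endoplasmic reticulum stress and secretion genes were lower in severe than mild in 14 of 16 cases, none by 2-fold or more, with a median log2 ratio of -0.20. Cholesterol synthesis genes were higher in 8 of 11, with a median of 0.23. Basement membrane and network collagens were higher in 11 of 13, with a median of 0.17. Over all genes, 46.2% lay below 0.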
